A study of Mus musculus with 36 samples.

Results

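Heat shock proteins and cytosolic chaperones were taken as every gene symbol that starts with Hspa to Hsph or Hsp9, with Dnaja, Dnajb or Dnajc, or with Cct2 to Cct8, together with Tcp1, Ahsa1, Bag3 and Stip1. This rule on names gave 88 members of the 24411 genes in the deposited tables of TPM, a measure of transcript share that is corrected for gene length and scaled to the same total in every library. It used no measured value. The libraries were RNA-seq of haematopoietic stem and progenitor cells (HSPCs) from mouse bone marrow, kept in culture, with conditional knockout of Taf1 (Taf1 KO) or from control mice whose genotype is labelled WT. TAF1 is a subunit of TFIID, the general factor that places RNA polymerase II at promoters, and the study asked what its loss does during myeloid differentiation. There were 12 groups of 3 libraries. Taf1 KO and control cells were each collected at day 0, at day 3 in SCF and IL-3, and then on either of 2 paths to day 7. The macrophage course used M-CSF throughout, joined by GM-CSF until day 5. The granulocyte course used G-CSF throughout, joined by SCF and IL-3 until day 5. Cells of both genotypes grew in IMDM with horse serum, and every cytokine was at 50 ng/ml. The labels do not say by what means Taf1 was deleted or what stretch of it is lost, how old the mice were, or whether the 3 libraries of each group stem from different mice. The p-values therefore reflect nothing but the spread among these libraries.

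Chaperones bind proteins that are not yet folded or that have lost their fold. HSP70 proteins hold and release short exposed stretches in a cycle driven by ATP, which J-domain proteins (the Dnaj genes) start by stimulating ATP hydrolysis and which nucleotide exchange factors (HSP110, Hspbp1, Bag3) complete. HSP90 takes over kinases, steroid receptors and other signalling proteins from HSP70, with Stip1 as the bridge between them and Ahsa1 as the activator of the HSP90 ATPase. TRiC, a ring of 8 different subunits encoded by Tcp1 and the Cct genes, folds actin and tubulin. Mitochondria have their own set in Hspa9, Hspd1 and Hspe1, and the endoplasmic reticulum (ER) in Hspa5, Hsp90b1 and ER J-domain proteins, which the unfolded protein response induces. After heat or other protein damage the factor HSF1 raises many of the cytosolic members.

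A total of 69 members reached at least 1 TPM in at least 3 libraries and were tested. The 19 that did not were Cct6b, Cct8l1, Dnaja4, Dnajb13, Dnajb7, Dnajb8, Dnajc22, Dnajc5b, Dnajc5g, Hspa12a, Hspa12b, Hspa1l, Hspb1, Hspb2, Hspb3, Hspb7, Hspb8, Hspb9 and Hspg2. Hspb1, the small heat shock protein HSP27 that many stressed tissues induce, stayed at or under 0.46 TPM in all 36 libraries. Hspg2 matches the rule by its name only: it encodes the matrix proteoglycan perlecan. The members together took 0.552% to 1.23% of the TPM of a library. Hspa8, the constitutive cytosolic HSP70, had the highest mean of all members in each of the 12 groups. In the GENCODE annotation some members overlap another coding gene on the opposite strand, among them Cct6a, Cct7, Cct8, Tcp1, Dnaja1, Dnajc17, Dnajc30, Hspb6 and the pair Hspd1 and Hspe1. The library kit keeps the strand, but whether the counting used it is not stated, so their values may hold reads of the partner. Among the members tested, Dnaja3, Dnajc14, Dnajc25 and Hspa14 overlap a coding gene on the same strand. There the strand cannot part the reads, and their values may hold reads of that gene too.

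Taf1 itself, the check of the labels, was lower in Taf1 KO libraries at all 6 stages, but the difference was small and did not pass at day 3 (log2 difference -0.17, adjusted p = 0.0711), where the share of members called was highest. It had 8.66, 10.3 and 9.06 TPM in Taf1 KO libraries at day 3, against 9.62, 10.9 and 11.5 TPM in control libraries, which overlap. At the other 5 stages it had 5.94 to 9.06 TPM in Taf1 KO and 10.2 to 16.3 TPM in control libraries. Its other log2 differences lay between -0.99 at day 5 of the macrophage course and -0.47 at day 7 of the granulocyte course. At day 7 the 8 macrophage markers summed to 1770.5 to 1900.4 TPM in the macrophage course and 907 to 968 TPM in the granulocyte course of Taf1 KO cells, and to 1722 to 2576 TPM and 1081 to 1864 TPM in control cells, where the courses overlap. The 8 neutrophil markers summed to 27504 to 41617 TPM in the macrophage course and 147904 to 168433 TPM in the granulocyte course of Taf1 KO cells, and to 36231 to 72689 TPM and 117254 to 164993 TPM in control cells, with no overlap between the courses in either genotype. Some libraries stood apart. Control replicate 1 at day 5 had 4.93% of its TPM in S100a8 and S100a9 in its macrophage library and 5.49% in its granulocyte library, against 13.9% to 14.5% in control replicates 2 and 3. Taf1 KO replicates 2 and 3 at day 7 had 2.29% to 4.66% of their TPM in the short structural RNAs Rpph1 and Rmrp, against 7.00% and 9.49% in Taf1 KO replicate 1 and 7.92% to 10.6% in the controls. Named calls at day 5 and in Taf1 KO cells at day 7 that were lost without these libraries are named as such. Leaving out Taf1 KO replicates 2 and 3 together leaves 1 Taf1 KO library per group at day 7. A call lost in that fit therefore cannot show whether it rested on those libraries.

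RefSeq promoter windows (GRCm38.p6, 250 bases before to 50 bases after the start of the gene) were at hand for 73 of the 88 members. HSF1 binds inverted repeats of the unit GAA. The head-to-head pair GAANNTTC, searched on both strands, was present in 13 of the 73 windows (17.8%) and in 7.95% of 27025 promoters, and it was in 7 of the 11 members of the HSF1-inducible list with a window: Bag3, Dnaja1, Hspa1a, Hspa1b, Hspb1, Hspe1 and Hsph1. The longer form, that pair with a further GAA unit alongside, was in Dnajb6, Hspe1 and Hsph1 (4.11% of the windows, against 0.529% of all promoters). The ER stress element (CCAAT and CCACG with 9 bases between them) was in Dnajc3, Hsp90b1 and Hspa5, 3 of the 11 ER chaperones with a window (27.3%), against 0.13% of all promoters. A match is a description of the letters and not evidence of binding. The windows of 4 members are shown, for these reasons. Bag3 and Hsph1 both hold GAANNTTC and differed in opposite directions at day 3. Hsph1 also holds the longer form and the tail-to-tail pair TTCNNGAA, and Bag3 holds neither. Hspe1 holds GAANNTTC and the longer form in a window that lies within the annotated Hspd1 gene, which runs the other way. Hspa5 is the main ER chaperone. The windows lie at chr7:128523333-128523632 (+) for Bag3, chr5:149636287-149636586 (-) for Hsph1, chr1:55087898-55088197 (+) for Hspe1 and chr2:34771840-34772139 (+) for Hspa5, each across the promoter and the start of the first exon. Capitals mark GAANNTTC, the tail-to-tail pair TTCNNGAA and the longer form in the windows of Bag3, Hsph1 and Hspe1, and the ER stress element in that of Hspa5.
Bag3: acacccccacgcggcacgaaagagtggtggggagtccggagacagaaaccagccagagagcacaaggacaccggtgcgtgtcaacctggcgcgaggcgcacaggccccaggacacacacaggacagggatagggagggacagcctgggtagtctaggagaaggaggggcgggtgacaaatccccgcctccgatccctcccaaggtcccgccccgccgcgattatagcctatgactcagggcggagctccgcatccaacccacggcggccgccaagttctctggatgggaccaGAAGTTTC
Hsph1: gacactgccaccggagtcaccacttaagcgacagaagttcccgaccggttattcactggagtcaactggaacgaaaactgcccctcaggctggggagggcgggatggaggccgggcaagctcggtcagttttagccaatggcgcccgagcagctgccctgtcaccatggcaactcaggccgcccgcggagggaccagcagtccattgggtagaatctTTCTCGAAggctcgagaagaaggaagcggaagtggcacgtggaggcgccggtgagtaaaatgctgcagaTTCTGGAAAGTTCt
Hspe1: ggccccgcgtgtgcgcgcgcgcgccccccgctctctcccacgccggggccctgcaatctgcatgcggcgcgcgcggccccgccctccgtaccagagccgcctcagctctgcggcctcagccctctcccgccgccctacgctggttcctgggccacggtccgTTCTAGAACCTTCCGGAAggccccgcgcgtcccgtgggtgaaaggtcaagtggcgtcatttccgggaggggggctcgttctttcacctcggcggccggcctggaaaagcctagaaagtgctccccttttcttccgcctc
Hspa5: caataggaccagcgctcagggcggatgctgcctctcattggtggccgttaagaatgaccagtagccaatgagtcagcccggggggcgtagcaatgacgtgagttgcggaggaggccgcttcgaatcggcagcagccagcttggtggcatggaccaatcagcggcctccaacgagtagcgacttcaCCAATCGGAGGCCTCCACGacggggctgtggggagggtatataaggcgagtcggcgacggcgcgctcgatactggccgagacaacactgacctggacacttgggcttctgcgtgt

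Taf1 KO was set against control at each stage with limma, with p adjusted over all genes tested (Benjamini-Hochberg) and a threshold of 0.05. Beside a fixed set, members are named below mostly because they passed, differed most and had groups of libraries without overlap. For members named in this way, such as Hspb11 at day 3, the lack of overlap follows from the choice. It adds nothing to their p-values. At day 3, 39 of the 69 members tested were called, or 56.5%, against 53.2% of all genes, and they leaned upwards: 30 members were higher and 9 lower in Taf1 KO cells, that is 43.5% and 13%, where 26.5% and 26.7% of all genes were. At day 0, 15 were called (all genes 23.3%), 6 higher and 9 lower (all genes 13.1% and 10.2%), and 5 and 14 under median-of-ratios scaling. At day 5 of the macrophage course 29 were called (all genes 43%), 1 higher and 28 lower (all genes 5.11% and 37.9%). At day 5 of the granulocyte course 22 were called (all genes 32%), 5 higher and 17 lower (all genes 9.2% and 22.8%). At day 7 of the macrophage course 18 were called (all genes 39.9%), 17 higher and 1 lower (all genes 27.4% and 12.5%). At day 7 of the granulocyte course 26 were called (all genes 44.1%), 23 higher and 3 lower (all genes 32.1% and 12%). Outside day 3, the shares of members that were higher and that were lower lay close to those of all genes, apart from the few members that were lower at day 7.

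**Figure D1:**
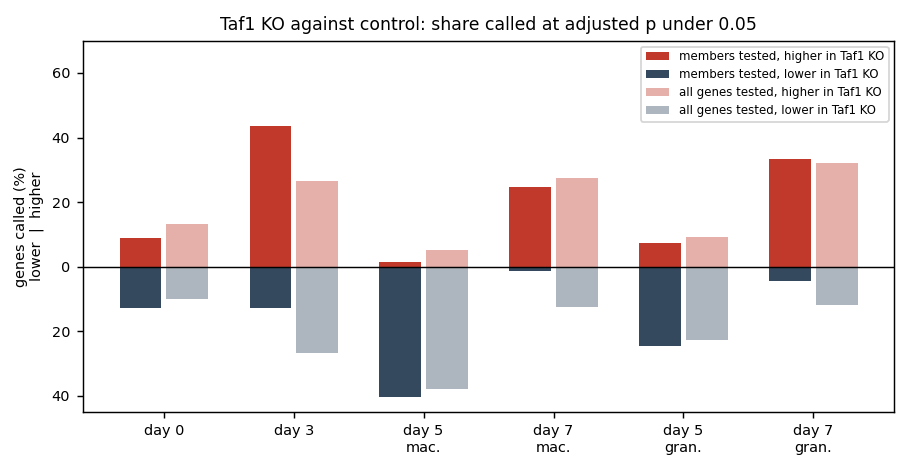
Share of genes called at adjusted p under 0.05 in Taf1 KO against control (y axis, percent, higher drawn upwards and lower downwards) at the 6 stages, with members on the left and all genes tested on the right of each pair. The members stand away from all genes at day 3, with 43.5% against 26.5% higher and 13% against 26.7% lower.

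The splits at day 5 of the macrophage course and at day 7 depended on how TPM are scaled between libraries. Median-of-ratios scaling moved the median log2 difference of all genes to -0.02 from -0.23 at day 5 of the macrophage course, to -0.01 from 0.12 at day 7 of the macrophage course and to -0.01 from 0.17 at day 7 of the granulocyte course. It gave 31 higher and 11 lower members at day 3, 11 and 15 at day 5 of the macrophage course, 8 and 17 at day 5 of the granulocyte course, 13 and 12 at day 7 of the macrophage course and 8 and 14 at day 7 of the granulocyte course. With the structural RNAs and histone genes left out, the split was 31 and 11 at day 3, 13 and 7 at day 7 of the macrophage course and 16 and 9 at day 7 of the granulocyte course. The share of all genes called was not taken under either scaling. No split under them, here or in other comparisons, can therefore be set against all genes. All 30 higher and all 9 lower members of day 3 kept their call under both scalings, as did the 5 and 17 of day 5 of the granulocyte course, and no member at any stage was called in the opposite direction. The median log2 difference of the members at day 3 was 0.22, against -0.01 over all genes. At the other stages the medians of the members were close to those of all genes, with -0.01 against 0.06 at day 0, -0.24 against -0.23 and -0.13 against -0.09 at day 5, and 0.10 against 0.12 and 0.15 against 0.17 at day 7 (macrophage and granulocyte course).

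At day 3, 3 of 6 HSP70 members, 1 of 2 HSP90 members and 2 of 3 HSP110 members were higher in Taf1 KO cells and none of them was lower. Hspa8 had 2280.3, 2134 and 1849 TPM in Taf1 KO libraries, against 854, 1185 and 1180.2 TPM in control libraries. Hsp90aa1, the stress-inducible form of cytosolic HSP90, had 744, 839.8 and 755 TPM in Taf1 KO libraries, against 264, 354 and 349 TPM in control libraries. Every Taf1 KO library lay above every control library for both genes. The log2 difference was 0.97 ± 0.20 (SE) for Hspa8 (adjusted p = 0.000424) and 1.28 ± 0.15 for Hsp90aa1 (adjusted p = 8.25e-07), the largest rise of any member. The constitutive form Hsp90ab1 had 639, 706 and 659 TPM in Taf1 KO and 493, 663 and 679 TPM in control libraries, ranges that overlap (adjusted p = 0.341).

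Of the 4 co-chaperones, 3 were higher and 1 was lower in Taf1 KO cells at day 3. Ahsa1 had 161, 180.5 and 180 TPM in Taf1 KO libraries, against 68.9, 79.5 and 84.5 TPM in control libraries. Stip1 had 125, 134 and 130.2 TPM, against 57.9, 74.4 and 79.3 TPM in control libraries. For both, the lowest Taf1 KO library stood well above the highest control library, with log2 differences of 1.16 ± 0.16 (adjusted p = 5.11e-06) and 0.88 ± 0.12 (adjusted p = 4.48e-06). Hspbp1, an exchange factor of HSP70, averaged 19.6 ± 0.884 TPM in Taf1 KO and 8.14 ± 0.551 TPM in control cells (SD, n = 3 each, log2 difference 1.17, adjusted p = 1.98e-07). Dnaja1, a J-domain partner of Hspa8, had 38.5, 43.8 and 39.4 TPM in Taf1 KO libraries, against 15.04, 18.3 and 19.1 TPM in control libraries. It too was higher in each Taf1 KO library (log2 difference 1.17 ± 0.14, adjusted p = 1.22e-06). Of the HSP110 genes, which exchange nucleotide on HSP70 and keep aggregates soluble, Hsph1 averaged 17.8 ± 1.41 TPM in Taf1 KO and 8.98 ± 0.687 TPM in control cells (adjusted p = 0.000131), and Hspa4 averaged 96.2 ± 9.78 TPM and 70.3 ± 5.47 TPM (adjusted p = 0.00136). Dnajb1, the classic inducible HSP40, differed less, with 26.97, 28.4 and 29.8 TPM in Taf1 KO libraries against 22.8, 22.4 and 22.3 TPM in control libraries, which do not overlap (log2 difference 0.32 ± 0.08, adjusted p = 0.00172).

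**Figure D2:**
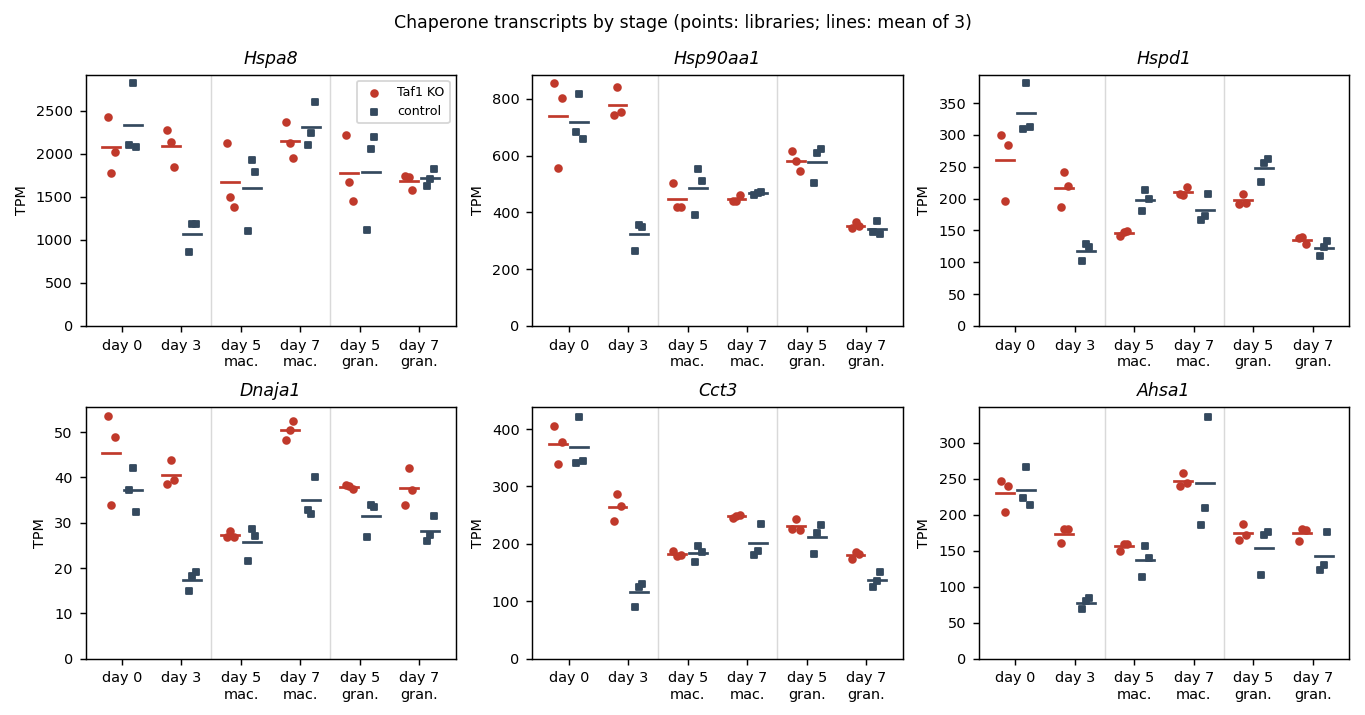
TPM of Hspa8, Hsp90aa1, Hspd1, Dnaja1, Cct3 and Ahsa1 (y axis, linear, from 0) in each library by stage (x axis), Taf1 KO left of control, with a line at the mean of 3. The control libraries of day 3 are the lowest of the day 0 and day 3 libraries for each of these genes, while the Taf1 KO libraries of day 3 lie above them.

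The HSF1-inducible list, which cuts across these roles, held 13 tested members. Of these, 9 were higher and 1 lower in Taf1 KO cells at day 3, where 26.5% and 26.7% of all genes were. Their median log2 difference was 0.87. The list was chosen with earlier results of these data known, so the count is not independent of them. The member of the list that was lower was Bag3, an HSP70 exchange factor that steers clients into autophagy. It had 2.61, 2.61 and 2.45 TPM in Taf1 KO libraries, against 7.21, 6 and 6.1 TPM in control libraries. The Taf1 KO libraries were tightly grouped below all controls (log2 difference -1.06 ± 0.10, adjusted p = 1.11e-07). Bag3 and Hsph1, whose windows are printed above, both hold GAANNTTC and differed in opposite directions, but only Hsph1 also holds the longer form. Of the other tested members of the list with GAANNTTC, Dnaja1 and Hspe1 were higher, and Hspa1a and Hspa1b did not pass. The part of these sites in the differences was not tested. The strongly heat-inducible Hspa1a and Hspa1b stayed near the detection filter, with 0.34, 0.2 and 0.28 TPM of Hspa1a in Taf1 KO and 1, 1.09 and 0.61 TPM in control libraries, and 1.24, 0.88 and 1.1 TPM of Hspa1b in Taf1 KO and 1.3, 0.85 and 0.98 TPM in control libraries. Neither passed (adjusted p = 0.23 and 0.962), and reads of these near-identical genes can be split between them.

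TRiC moved unevenly at day 3: 6 of its 8 subunits were higher in Taf1 KO cells, and Cct2 and Cct4 did not pass. Cct3 had 239, 287 and 266 TPM in Taf1 KO libraries, against 89.7, 125 and 131 TPM in control libraries. The groups stood far apart (log2 difference 1.20 ± 0.13, adjusted p = 2.26e-07). Cct8 averaged 217 ± 18.4 TPM in Taf1 KO and 124 ± 10.5 TPM in control cells, Cct7 262 ± 20.3 TPM and 158 ± 18.6 TPM, and Cct6a 205 ± 21.9 TPM and 126 ± 16.6 TPM (log2 differences 0.81, 0.73 and 0.70). Tcp1 had 268, 318 and 293 TPM in Taf1 KO and 189, 245 and 258 TPM in control libraries, a smaller difference of 0.35 ± 0.10 (adjusted p = 0.00583), which was lost without control replicate 1 (adjusted p = 0.0559). Cct5 had 341, 397 and 379 TPM in Taf1 KO and 277, 315 and 325 TPM in control libraries (adjusted p = 0.0174), and leaving out Taf1 KO replicate 2 or 3 or control replicate 1 ended that call (adjusted p = 0.0538 to 0.0963). Cct2 had 256, 302 and 285 TPM in Taf1 KO and 220.2, 274 and 282 TPM in control libraries, which overlap (log2 difference 0.12 ± 0.10). The subunits are assembled in equal numbers, and the ratio of the highest to the lowest mean transcript level among them was 1.82 in Taf1 KO and 2.65 in control cells at day 3. The control value at day 3 was the largest of the 12 groups, and in all 12 Cct5 was the highest.

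The mitochondrial chaperonin was also higher at day 3. Hspd1 (HSP60) had 187, 242 and 219 TPM in Taf1 KO libraries, against 102, 129 and 123 TPM in control libraries. Its lid Hspe1 (HSP10), which starts from the same stretch of DNA in the other direction and overlaps it at the 5′ ends, had 184, 230.2 and 217 TPM, against 124, 139 and 147 TPM in control libraries. All Taf1 KO libraries lay above all controls (log2 differences 0.87 ± 0.14 and 0.62 ± 0.15, adjusted p = 2.65e-05 and 0.00232). Hspa9, the mitochondrial HSP70, did not share this: it had 172, 216 and 199 TPM in Taf1 KO and 271, 219.6 and 251 TPM in control libraries (adjusted p = 0.281). Of the 10 mitochondrial members tested, 5 were higher and 1, Dnajc4, was lower (8.5 TPM in Taf1 KO and 15.5 TPM in control cells, log2 difference -0.80 ± 0.13, adjusted p = 2.74e-05).

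The ER chaperones were mixed at day 3, with 4 of 12 higher and 2 lower and a median log2 difference of 0.01. Dnajb11, a J-domain partner of Hspa5 in the ER lumen, averaged 86.3 ± 0.645 TPM in Taf1 KO and 58.4 ± 1.8 TPM in control cells (log2 difference 0.56 ± 0.14, adjusted p = 0.00176). Hsp90b1, the ER form of HSP90, had 383, 362 and 348 TPM in Taf1 KO libraries and 307, 275 and 286 TPM in control libraries (adjusted p = 0.0179), a call lost without Taf1 KO replicate 1 or control replicate 2 (adjusted p = 0.062 and 0.0631). Hspa5 itself had 653, 559 and 573 TPM in Taf1 KO and 532, 389.7 and 437 TPM in control libraries and did not pass (adjusted p = 0.0651). Dnajb9, a target of the unfolded protein response, went the other way, with 17.2, 14.2 and 12.5 TPM in Taf1 KO and 22.5, 18.4 and 18.6 TPM in control libraries (log2 difference -0.42 ± 0.17, adjusted p = 0.0432), and 5 of the 6 fits without 1 of these libraries lost that call. Dnajb12, a J-domain protein of the ER membrane, averaged 15.2 ± 0.942 TPM in Taf1 KO and 23.4 ± 0.634 TPM in control cells (log2 difference -0.59 ± 0.13, adjusted p = 0.000841). Dnajc3, which restrains the kinase PERK, had overlapping libraries (30.02, 31.03 and 30.4 TPM in Taf1 KO and 32.8, 29.98 and 32.1 TPM in control libraries).

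The largest fall of any member at day 3 was that of Hspb11. Despite its name it encodes IFT25, a part of the intraflagellar transport complex. It had 8.77, 8.51 and 7.92 TPM in Taf1 KO libraries, against 28.4, 28.7 and 33.5 TPM in control libraries, and the groups were far apart (log2 difference -1.73 ± 0.23, adjusted p = 3.97e-06). Dnajb2, which hands clients to the proteasome, had 4.73, 4.11 and 4.16 TPM in Taf1 KO libraries, against 8.21, 8.99 and 9.47 TPM in control libraries (log2 difference -0.89 ± 0.14, adjusted p = 3.13e-05). Dnajc17, Dnajb4 and Hspb6 were also lower, by 0.56, 0.55 and 0.43 on the log2 scale. Among the remaining J-domain proteins, Dnajc9, a co-chaperone of histones, averaged 99.9 ± 7.34 TPM in Taf1 KO and 49.2 ± 8.3 TPM in control cells (log2 difference 1.02 ± 0.11, adjusted p = 1.84e-07).

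Genes of the same pathways outside the rule were counted for comparison, beside the 26.5% of all genes that were higher and the 26.7% that were lower at day 3. Of 23 partners of HSP90 and HSP70, 14 were higher and none lower in Taf1 KO cells at day 3. The immunophilin Fkbp4 averaged 163 ± 13.6 TPM in Taf1 KO and 73.4 ± 6.85 TPM in control cells (SD, n = 3 each, log2 difference 1.14), and Tomm34 47.6 ± 1.68 TPM and 23.6 ± 1.91 TPM. Of 12 prefoldin and TRiC partners, which deliver clients to the ring, 5 were higher and none lower, among them Pfdn6 with 140.3 ± 3.86 TPM in Taf1 KO and 88.7 ± 1.19 TPM in control cells. Of 16 ER folding genes, 6 were higher and 4 lower, near the shares of all genes, and the lectin chaperone Calr averaged 1367 ± 102 TPM in Taf1 KO and 577 ± 56.9 TPM in control cells. Of 12 genes of mitochondrial protein quality control, 7 were higher and 1 lower, among them the mitochondrial HSP90 Trap1 with 91.7 ± 6.81 TPM in Taf1 KO and 55.2 ± 7.50 TPM in control cells.

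Marker genes of other cell types moved with these differences at day 3, and fewer cells of a type cannot be told apart from less RNA per cell in such bulk libraries. The 6 proliferation markers summed to 754.7 to 839.8 TPM in Taf1 KO and 440.1 to 660.3 TPM in control libraries. The 8 macrophage markers summed to 163.7 to 272.5 TPM in Taf1 KO and 701 to 993 TPM in control libraries, the 6 megakaryocyte markers to 277 to 609 TPM and 1341 to 2340.1 TPM, and the 8 neutrophil markers to 128556 to 142973 TPM and 74804 to 89791 TPM. The 4 eosinophil markers summed to 534 to 603 TPM in Taf1 KO and 1855 to 2865 TPM in control libraries, the 5 mast cell and basophil markers to 722 to 909 TPM and 1082 to 1474 TPM, the 5 dendritic cell markers to 433 to 515 TPM and 702 to 1117 TPM, the 6 erythroid markers to 3.39 to 4.49 TPM and 11.9 to 17.0 TPM, and the 5 progenitor markers to 113 to 146 TPM and 78.5 to 109.8 TPM. None of these markers was at 0 in a whole group at day 3, while the T cell marker Cd3e was at 0 in all libraries of that day. Their part in the chaperone differences was not tested.

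The day 3 difference followed a fall in control cells that was smaller in Taf1 KO cells. Between day 3 and day 0, 10 members rose and 26 fell in Taf1 KO cells (all genes 58.8% called, 22.8% up and 35.9% down), and 12 rose and 44 fell in control cells (all genes 73% called, 33.3% up and 39.6% down). Median-of-ratios scaling gave 18 rising and 19 falling members in Taf1 KO cells, and leaving out structural RNAs and histone genes gave 5 and 37. The median log2 difference of the members was -0.20 in Taf1 KO and -0.51 in control cells, against -0.12 and -0.07 over all genes. The test of the difference between the genotypes passed for 27 members, 24 of them upwards and 3 downwards, where 32.3% of all genes passed, 15% upwards and 17.3% downwards. It uses the same day 3 libraries as the comparison above and is not independent of it. All 27 kept their call under both scalings.

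Single members show the pattern. Hsp90aa1 averaged 779.6 ± 52.5 TPM at day 3 and 738 ± 160.1 TPM at day 0 in Taf1 KO cells, and 322 ± 50.6 TPM at day 3 and 719.7 ± 86.4 TPM at day 0 in control cells (SD, n = 3 each). The difference between the genotypes in this change was 1.27 ± 0.21 on the log2 scale (adjusted p = 0.000217). Hspbp1 averaged 19.6 ± 0.884 TPM at day 3 and 38.4 ± 2.81 TPM at day 0 in Taf1 KO cells, and 8.14 ± 0.551 TPM and 47.6 ± 7.39 TPM in control cells, the largest such difference (1.47 ± 0.17, adjusted p = 6.08e-06). It fell in both genotypes, by 0.93 and 2.40 on the log2 scale. Hspd1 averaged 216 ± 27.5 TPM at day 3 and 260.3 ± 55.7 TPM at day 0 in Taf1 KO cells, where the fall did not pass, and 118 ± 14.1 TPM and 334 ± 40.6 TPM in control cells (difference 1.24 ± 0.19, adjusted p = 0.000119). All 8 TRiC subunits fell by day 3 in both genotypes (6 in Taf1 KO cells under median-of-ratios scaling), and 4 of them, Cct3, Cct6a, Cct7 and Cct8, fell less in Taf1 KO cells. The 3 members with the opposite difference were Dnajc4, Hspb6 and Dnajc5, the last of which lost its call without any of 10 single libraries. Dnajc4 averaged 8.5 ± 0.718 TPM at day 3 and 6.39 ± 0.205 TPM at day 0 in Taf1 KO cells, and 15.5 ± 1.53 TPM and 5.73 ± 1.17 TPM in control cells (-0.94 ± 0.18, adjusted p = 0.000607).

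At day 0, 15 members were called. Hsp90ab1 had 894, 653 and 851 TPM in Taf1 KO libraries, against 1269, 1235 and 1134 TPM in control libraries. Every Taf1 KO library was below every control (log2 difference -0.61 ± 0.12, adjusted p = 0.000992), while Hsp90aa1 did not pass at this stage. Hspb11 had 3.74, 3.11 and 3.36 TPM in Taf1 KO libraries, against 7.19, 10.8 and 7.87 TPM in control libraries (log2 difference -1.11 ± 0.23, adjusted p = 0.00152). Hspa13, a microsomal HSP70, Dnajc3 and Dnajc17 were lower by 0.43, 0.41 and 0.45 on the log2 scale, and the call of Dnajc17 was lost without Taf1 KO replicate 2 or control replicate 2. Of those that were higher, Cct7 averaged 320.2 ± 25.1 TPM in Taf1 KO and 252 ± 28.1 TPM in control cells (adjusted p = 0.00991) and Hspa14, an HSP70-like partner of the ribosome-bound Dnajc2, 103 ± 7.74 TPM and 82.6 ± 9.79 TPM (adjusted p = 0.0216). Both calls, and those of Dnajc5 and Dnajc24, were lost without single libraries (adjusted p up to 0.139). Hspa1a varied widely within each group, with 0.29, 1.03 and 3.27 TPM in Taf1 KO and 1.74, 9.66 and 1.5 TPM in control libraries, and so did Hspa1b, with 1.03, 1.66 and 5.17 TPM and 2.83, 10.4 and 2.29 TPM. The groups overlap and neither passed (adjusted p = 0.103 and 0.163). At this stage the 8 neutrophil markers summed to 19143 to 38063 TPM in Taf1 KO and 7184 to 14275 TPM in control libraries, the 5 dendritic cell markers to 40.5 to 79.4 TPM and 101 to 280.4 TPM, the 6 erythroid markers to 35.0 to 74.1 TPM and 85.1 to 118 TPM, the 5 mast cell and basophil markers to 69.7 to 109.9 TPM and 134 to 395 TPM, and the 8 macrophage markers to 55.8 to 63.2 TPM and 49.6 to 54.95 TPM. Their part in the day 0 differences was not tested.

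**Figure D3:**
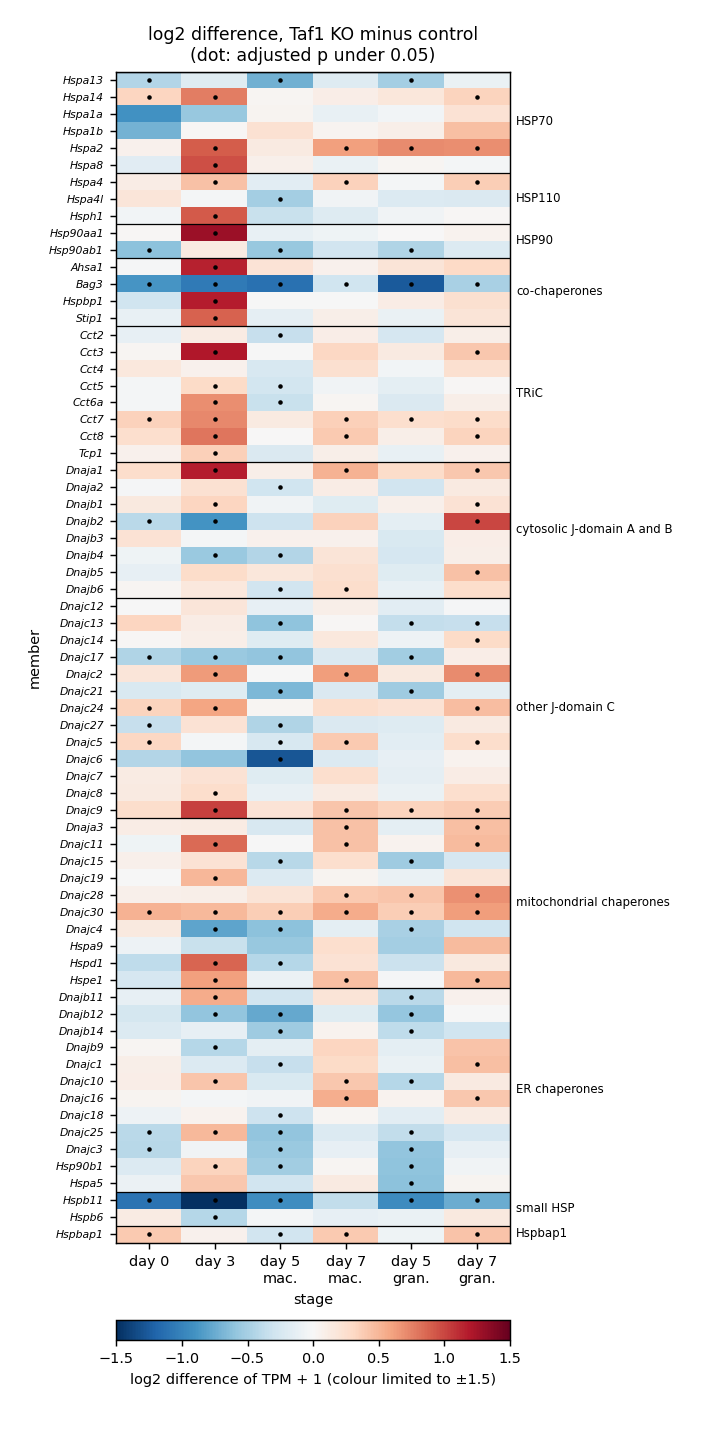
log2 difference of Taf1 KO minus control (colour, red higher and blue lower in Taf1 KO, limited to 1.5 either way) of the 69 tested members (rows, by role) at 6 stages (columns), with a dot where adjusted p was under 0.05. The column of day 3 is mostly red from HSP70 to TRiC, the ER block turns blue at day 5 in both courses, and the rows of Bag3 and Dnajc30 keep their colour throughout.

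At day 5 no ER chaperone was called higher in Taf1 KO cells, and Hspa2 was the only HSP70, HSP90, HSP110 or co-chaperone member called higher, in the granulocyte course. Few of all genes were called higher either, 5.11% in the macrophage and 9.2% in the granulocyte course. Of the 12 ER members, 8 were lower in the granulocyte course, where 22.8% of all genes were, and 7 in the macrophage course, where 37.9% of all genes were (median log2 differences -0.39 and -0.33, against -0.09 and -0.23 over all genes). Under median-of-ratios scaling the counts were 8 and 4, and without control replicate 1 they were 6 and 6. In the granulocyte course Hsp90b1 had 367, 326 and 344 TPM in Taf1 KO libraries, against 531, 520.1 and 525 TPM in control libraries. The groups were well apart (log2 difference -0.61 ± 0.11, adjusted p = 0.000309). In the macrophage course it had 325, 309 and 324 TPM in Taf1 KO libraries, against 401, 492 and 485 TPM in control libraries (log2 difference -0.52 ± 0.11, adjusted p = 0.00117), and under median-of-ratios scaling the call was lost (-0.26). Dnajc3 had 36.2, 30.97 and 31.6 TPM in Taf1 KO and 57.7, 46.1 and 47.1 TPM in control libraries of the granulocyte course, and 32.1, 28.97 and 28.3 TPM and 45.02, 43.6 and 44.6 TPM in the macrophage course. No Taf1 KO library reached a control in either (log2 differences -0.59 ± 0.11 and -0.56 ± 0.10, adjusted p = 0.000358 and 0.000129).

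Hspa5, whose promoter window above holds the ER stress element, had 747, 541 and 557 TPM in Taf1 KO libraries of the granulocyte course, against 1253, 805 and 810.4 TPM in control libraries. All Taf1 KO libraries lay below the controls, but in both genotypes replicate 1 was higher than the other libraries (log2 difference -0.62 ± 0.18, adjusted p = 0.0127). The call was lost without control replicate 1 (-0.41, adjusted p = 0.0891) and without Taf1 KO replicate 2 or 3 (adjusted p = 0.0646 and 0.053). In the macrophage course Hspa5 had 802, 522 and 551 TPM in Taf1 KO and 901, 693 and 672 TPM in control libraries, which overlap (adjusted p = 0.198). Dnajb11 averaged 95.5 ± 0.422 TPM in Taf1 KO and 127 ± 13.6 TPM in control cells of the granulocyte course (adjusted p = 0.0137) and did not pass in the macrophage course. Of the 16 ER folding genes outside the rule, 7 were lower and none higher in the granulocyte course, where 22.8% of all genes were lower, among them the disulfide isomerase Pdia6 with 163 ± 15.0 TPM in Taf1 KO and 288 ± 26.2 TPM in control cells, and Manf with 65.8 ± 5.40 TPM and 105 ± 4.94 TPM. In the macrophage course 8 were lower and none higher, where 37.9% of all genes were lower.

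**Figure D4:**
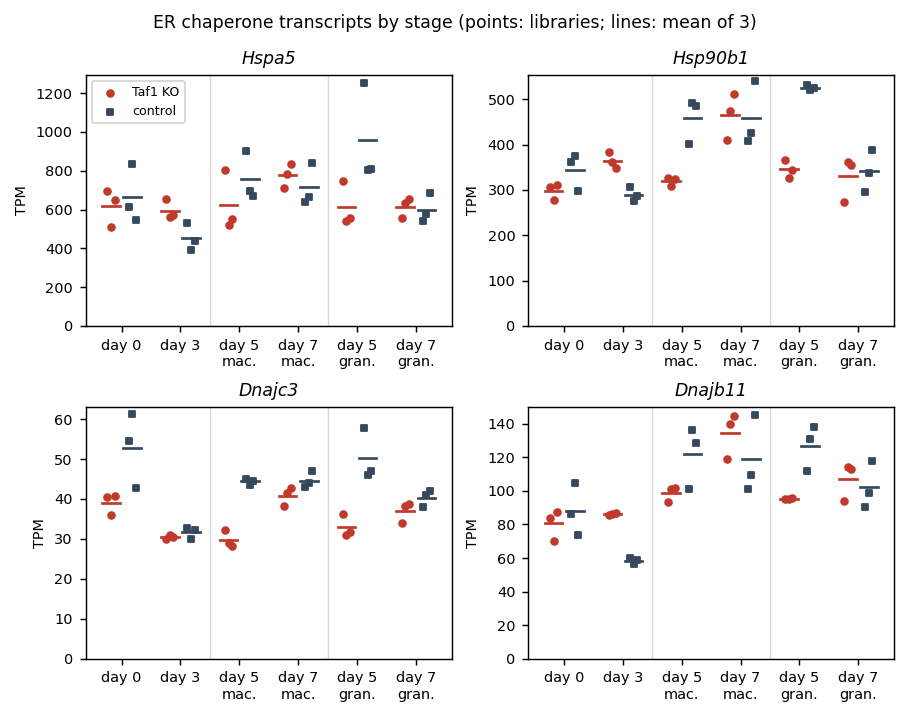
TPM of the ER chaperones Hspa5, Hsp90b1, Dnajc3 and Dnajb11 (y axis, linear, from 0) in each library by stage (x axis), Taf1 KO left of control, with a line at the mean of 3. At day 5 of both courses the Taf1 KO libraries of Hsp90b1 and Dnajc3 lie below all controls, and control replicate 1 of Hspa5 in the granulocyte course stands above the other controls at 1253 TPM.

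The cytosolic Hsp90ab1 was lower at day 5 in both courses. In the macrophage course it had 436, 382 and 383 TPM in Taf1 KO and 522, 653 and 604 TPM in control libraries. In the granulocyte course it had 525, 535 and 523 TPM and 646, 770.1 and 752 TPM. The groups did not overlap in either (log2 differences -0.56 ± 0.12 and -0.45 ± 0.12, adjusted p = 0.00104 and 0.00547). The microsomal Hspa13 averaged 12.2 ± 1.09 TPM in Taf1 KO and 20.8 ± 2.85 TPM in control cells of the macrophage course (log2 difference -0.72 ± 0.11, adjusted p = 2.46e-05). Dnajb12, one of the ER members counted above, averaged 11.7 ± 0.445 TPM and 21.1 ± 6.18 TPM (-0.77 ± 0.13, and -0.56 without control replicate 1). Dnajc6 (auxilin, which strips clathrin from vesicles) had 1.65, 1.04 and 1.15 TPM in Taf1 KO libraries of the macrophage course, against 11.8, 2.79 and 2.48 TPM in control libraries. Control replicate 1 was far above the other controls, and without it the log2 difference was -0.68 in place of -1.29. TRiC had 3 of 8 subunits lower in the macrophage course, a share near the 37.9% of all genes, and none higher, but with median-of-ratios scaling none was lower and 2, Cct7 and Cct8, were higher. In the granulocyte course Cct7 and Dnajc9 were higher by 0.25 and 0.34 on the log2 scale, calls that were both lost without control replicate 1, and that of Cct7 without any of the other 5 libraries too. Without that library 14 members were called in the granulocyte course, in place of 22. The 8 neutrophil markers summed to 184175 to 244060 TPM in Taf1 KO and 55011 to 160880 TPM in control libraries at day 5 of both courses, and the 8 macrophage markers to 228 to 467 TPM and 788 to 1202 TPM. The 6 proliferation markers summed to 604 to 645 TPM in Taf1 KO and 686 to 798 TPM in control libraries. The 5 progenitor markers summed to 33.6 to 43.2 TPM in Taf1 KO and 19.6 to 28.2 TPM in control libraries of the macrophage course, and to 114 to 137 TPM and 46.7 to 49.9 TPM in the granulocyte course. The 4 eosinophil markers summed to 550.2 to 603 TPM in Taf1 KO and 884 to 1705 TPM in control libraries of the macrophage course, and to 724 to 766 TPM and 796 to 1811 TPM in the granulocyte course. The 5 dendritic cell markers of the macrophage course summed to 319.9 to 449 TPM and 174 to 262 TPM, and the 6 erythroid markers of the granulocyte course to 1.96 to 2.96 TPM and 4.36 to 7.39 TPM, in Taf1 KO and control libraries. Their part in the day 5 differences was not tested.

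At day 7 more members were higher than lower in Taf1 KO cells in both courses, and all genes leaned the same way. Of all genes, 27.4% were higher and 12.5% lower in the macrophage course, and 32.1% and 12% in the granulocyte course. Under median-of-ratios scaling the split of the members was nearly even in the macrophage course. It turned round in the granulocyte course, and no share of all genes was taken under that scaling. Without Taf1 KO replicates 2 and 3 (structural RNA low, as above) only 1 Taf1 KO library is left per group. That is too few to tell whether the calls rest on those libraries. Leaving out single libraries gave 11 members in the macrophage course (without control replicate 1) and 13 to 17 in the granulocyte course (without control replicate 1 or 2, or Taf1 KO replicate 2 or 3). Dnajc2, a J-domain protein at the ribosome exit, had 50.1, 56.2 and 55.98 TPM in Taf1 KO libraries of the macrophage course, against 31.4, 33.4 and 39.3 TPM in control libraries. In the granulocyte course it had 43.2, 54.7 and 49.1 TPM, against 25.9, 29.4 and 33.5 TPM in control libraries. It was higher in each Taf1 KO library in both courses (log2 differences 0.63 ± 0.16 and 0.71 ± 0.17, adjusted p = 0.00323 and 0.00225), also under both scalings. Groups without overlap were part of the rule by which it was named. Both calls were lost without Taf1 KO replicates 2 and 3 together, though the Taf1 KO library left lay above every control in both courses. Dnaja1 averaged 50.4 ± 2.1 TPM in Taf1 KO and 34.96 ± 4.44 TPM in control cells of the macrophage course (adjusted p = 0.00654), and Dnajc16 11.1 ± 1.82 TPM and 7.24 ± 0.531 TPM (adjusted p = 0.000484). These calls too were lost without Taf1 KO replicates 2 and 3 together. Hspe1 averaged 167 ± 13.5 TPM in Taf1 KO and 119.8 ± 18.3 TPM in control cells of the granulocyte course (adjusted p = 0.0159). That call was lost under median-of-ratios scaling (log2 difference 0.27) and without Taf1 KO replicate 2, control replicate 1 or 2, or Taf1 KO replicates 2 and 3 together. Hsp90ab1 had 487, 469 and 496 TPM in Taf1 KO and 595, 605 and 567 TPM in control libraries of the macrophage course, and 405, 417 and 422 TPM and 469, 492 and 473 TPM in the granulocyte course. Its groups did not overlap in either, yet it passed only under the other scalings (median-of-ratios log2 differences -0.44 and -0.42). The 6 megakaryocyte markers summed to 1809 to 2252 TPM in Taf1 KO and 389 to 423 TPM in control libraries of the macrophage course, and to 1213 to 1654 TPM and 285 to 480 TPM in the granulocyte course. The 5 mast cell and basophil markers summed to 1117 to 4303 TPM in Taf1 KO and 918 to 1287 TPM in control libraries of the granulocyte course. The 5 progenitor markers summed to 40.8 to 44.0 TPM in Taf1 KO and 19.9 to 21.1 TPM in control libraries of the macrophage course, and to 73.1 to 82.4 TPM and 20.9 to 27.6 TPM in the granulocyte course. The 6 proliferation markers summed to 544 to 567 TPM in Taf1 KO and 663 to 705 TPM in control libraries of the macrophage course, and to 362 to 452 TPM and 494 to 532 TPM in the granulocyte course. The 4 eosinophil markers summed to 29.8 to 63.78 TPM in Taf1 KO and 63.80 to 176 TPM in control libraries of the macrophage course, and to 161 to 253 TPM and 461 to 554 TPM in the granulocyte course. The 5 dendritic cell markers of the macrophage course summed to 232 to 379 TPM and 108 to 183 TPM, and the 6 erythroid markers of the granulocyte course to 2.82 to 3.76 TPM and 1.04 to 1.80 TPM, in Taf1 KO and control libraries. Their part in the day 7 differences was not tested.

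Dnajb2 turned round between day 3 and day 7. At day 7 of the granulocyte course it had 5.2, 10.1 and 9.08 TPM in Taf1 KO libraries, against 3.01, 3.14 and 4.16 TPM in control libraries. Taf1 KO replicates 2 and 3 stood far above replicate 1, which itself lay above every control (log2 difference 1.01 ± 0.18, adjusted p = 0.000199). Without those libraries, with 1 Taf1 KO library left, the call was lost. The genotypes differed in the change between day 7 and day 0 by 1.42 ± 0.26 (adjusted p = 0.000606). Dnajc13, which acts on endosomes, was lower at day 7 of the granulocyte course, with 20.6 TPM in Taf1 KO and 26.4 TPM in control cells (log2 difference -0.34 ± 0.12, adjusted p = 0.0246). That call was lost without any of 4 single libraries and without Taf1 KO replicates 2 and 3 together.

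Few members kept 1 direction at all 6 stages, a share near that of all genes. Of the 69 members, 1 was higher in Taf1 KO cells at all 6 stages (Dnajc30) and 1 was lower at all 6 (Bag3). Of the 11826 genes tested at all 6 stages, 1.67% were higher and 1.76% lower at each. Cct7 was higher at 5 stages and Hspb11 lower at 5. There were 12 members of the 69 that were called higher at some stage and lower at another, where 15.1% of all genes were, and 7 that were never called: Cct4, Dnajb3, Dnajc12, Dnajc7, Hspa1a, Hspa1b and Hspa9. The shares of all genes called at 5 stages in 1 direction, or never, were not taken.

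Bag3 was low and rose over the macrophage course, while its control libraries of days 5 and 7 overlapped in the granulocyte course. In Taf1 KO libraries it had 1.33, 1.19 and 1.31 TPM at day 0, 3.01, 2.5 and 2.76 TPM at day 5 of the macrophage course and 7.8, 9.07 and 9.3 TPM at day 7 of that course. In control libraries it had 3.77, 3.03 and 2.83 TPM, 6.8, 6.42 and 8.26 TPM and 10.96, 11.7 and 10.2 TPM at these stages. In the granulocyte course it had 2.5, 2.19 and 2.54 TPM at day 5 and 4.6, 4.98 and 5.08 TPM at day 7 in Taf1 KO libraries, and 8.33, 6.62 and 6.62 TPM and 6.63, 6.69 and 8.63 TPM in control libraries. The groups did not overlap at any stage. The log2 difference was -0.88 ± 0.10 at day 0, -1.11 ± 0.10 and -1.26 ± 0.11 at day 5 and -0.30 ± 0.10 and -0.49 ± 0.11 at day 7 of the macrophage and granulocyte courses. The gap was thus smallest at day 7 of the macrophage course (adjusted p = 0.027). There 3 of the 6 single libraries, when left out, ended the call, as did leaving out Taf1 KO replicates 2 and 3 together. The change between day 7 of the macrophage course and day 0 was larger in Taf1 KO cells (0.58 ± 0.15, adjusted p = 0.0138), a call also lost without Taf1 KO replicates 2 and 3 together. Both scalings left the direction and the call at every stage as they were.

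Dnajc30 encodes a small mitochondrial J-domain protein that takes part in the upkeep of complex I. The gene lies at chr5:135064202-135065862 (+, GENCODE annotation of GRCm38) and overlaps Bud23 on the opposite strand. It had 21.2, 16.8 and 19.01 TPM in Taf1 KO libraries at day 0, against 11.7, 14.1 and 13.1 TPM in control libraries. At day 7 of the granulocyte course it had 14.4, 14.9 and 15.7 TPM, against 8.14, 9.5 and 10.6 TPM in control libraries. At both stages, and at the other 4, all Taf1 KO libraries lay above all controls, with log2 differences between 0.36 and 0.62. The call at day 5 of the granulocyte course (adjusted p = 0.0172) was lost without Taf1 KO replicate 2 or 3 or control replicate 3. That at day 7 of the macrophage course was lost without Taf1 KO replicates 2 and 3 together. Bud23, listed as Wbscr22, did not follow it at every stage: it averaged 64.5 TPM in Taf1 KO and 58.3 TPM in control cells at day 0 (adjusted p = 0.428), and 42.7 TPM and 17.6 TPM at day 3 (log2 difference 1.24). Reads of the overlap may be shared between them.

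**Figure D5:**
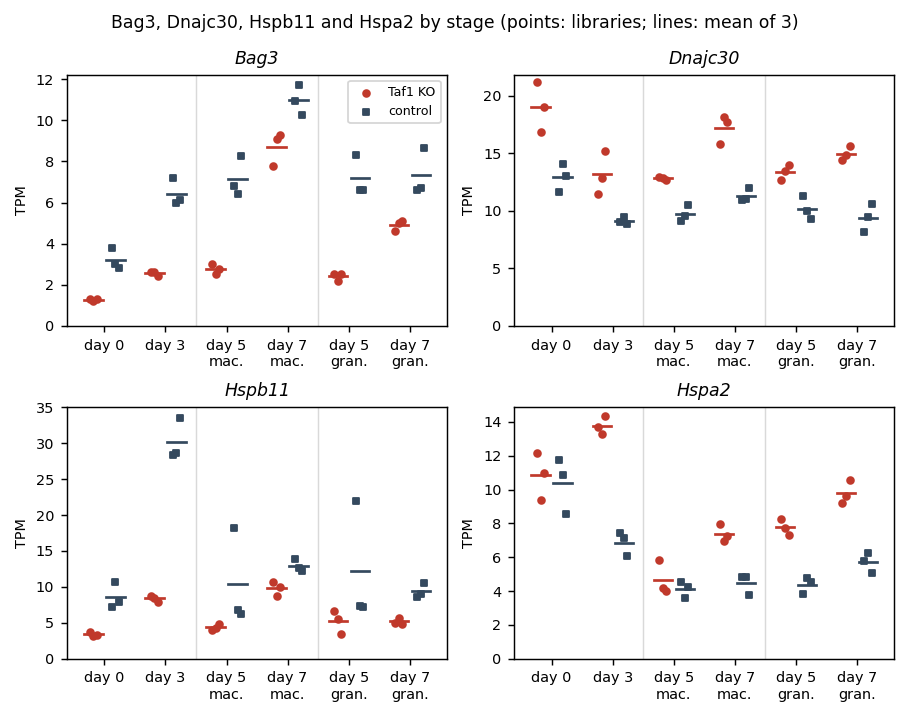
TPM of Bag3, Dnajc30, Hspb11 and Hspa2 (y axis, linear, from 0) in each library by stage (x axis), Taf1 KO left of control, with a line at the mean of 3. Bag3 is lower and Dnajc30 higher in all Taf1 KO libraries at each stage, and control replicate 1 of Hspb11 stands apart at day 5 in both courses.

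Hspb11 was lower at 5 stages and Hspa2 higher at 4. Hspb11 averaged 8.4 TPM at day 3 and 9.8 TPM at day 7 of the macrophage course in Taf1 KO cells, and 30.2 TPM and 12.9 TPM in control cells. At day 5 it had 4, 4.3 and 4.9 TPM in Taf1 KO libraries of the macrophage course, against 18.1, 6.73 and 6.25 TPM in control libraries, and 6.64, 5.53 and 3.4 TPM and 22, 7.29 and 7.18 TPM in the granulocyte course. Control replicate 1 lay far above the other controls in both courses. Without it the log2 difference was -0.47 in place of -0.93 in the macrophage course, still called, and -0.45 in place of -0.94 in the granulocyte course, where the call was lost (adjusted p = 0.0608), as it was without Taf1 KO replicate 3 (adjusted p = 0.0697). At day 7 of the granulocyte course each of 5 single libraries, when left out, ended the call (adjusted p = 0.0286 with all libraries). Leaving out Taf1 KO replicates 2 and 3 together ended it too. Hspa2, an HSP70 best known from the testis, had 13.7, 13.3 and 14.3 TPM in Taf1 KO and 7.41, 7.13 and 6.06 TPM in control libraries at day 3, and 9.18, 9.64 and 10.6 TPM and 5.77, 6.25 and 5.05 TPM at day 7 of the granulocyte course. Its groups were separate at both stages (log2 differences 0.91 ± 0.13 and 0.69 ± 0.12, adjusted p = 1.13e-05 and 0.00012). It was also higher at day 5 of the granulocyte course and day 7 of the macrophage course (0.71 ± 0.12 and 0.62 ± 0.13), both day 7 calls held without Taf1 KO replicates 2 and 3 together, and under median-of-ratios scaling at day 5 of the macrophage course too.

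Over the whole culture TRiC and cytosolic HSP90 transcripts declined. Between day 7 and day 0 in the granulocyte course, 12 members rose and 35 fell in Taf1 KO cells (all genes 73.8% called, 31.3% up and 42.4% down), and 6 rose and 43 fell in control cells (all genes 76% called, 28.6% up and 47.3% down). In the macrophage course 21 rose and 23 fell in Taf1 KO cells (all genes 71.6% called, 35.2% up and 36.4% down), and 16 rose and 30 fell in control cells (all genes 73.5% called, 33.6% up and 39.8% down). The splits under median-of-ratios scaling were 18 and 32 in Taf1 KO and 16 and 32 in control cells of the granulocyte course, and without structural RNAs and histone genes they were 14 and 40 in Taf1 KO and 8 and 39 in control cells of the macrophage course and 8 and 50 in Taf1 KO cells of the granulocyte course. All 8 TRiC subunits and both cytosolic HSP90 genes fell in both courses and both genotypes, also under both other scalings. Hsp90ab1 averaged 484 ± 13.6 TPM at day 7 of the macrophage course and 799 ± 128 TPM at day 0 in Taf1 KO cells, and 589 ± 19.9 TPM and 1213 ± 70.3 TPM in control cells. Cct5 averaged 232 ± 2.71 TPM at day 7 of the granulocyte course and 536 ± 52.7 TPM at day 0 in Taf1 KO cells, and 229 ± 18.3 TPM and 546 ± 50.8 TPM in control cells. The steepest fall was that of Dnajc6, to 0.497 TPM at day 7 of the macrophage course, against 12.8 TPM at day 0, in Taf1 KO cells, and to 0.753 TPM, against 17.8 TPM, in control cells. The J-domain proteins Dnajb14 of the ER membrane, Dnajc4, Dnajc5 (cysteine string protein) and Dnajc14 were among those that rose most, Dnajb14 to 14.2 TPM, against 4.42 TPM at day 0, in Taf1 KO cells and to 13.6 TPM, against 5.28 TPM, in control cells of the macrophage course. The ER chaperones took another path in the macrophage course, where 9 of 12 rose and 1 fell in Taf1 KO cells and 7 rose and 2 fell in control cells. Without structural RNAs and histone genes these counts were 6 and 2 in Taf1 KO and 2 and 2 in control cells.

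The genotypes were also compared in this overall change. The test of the difference passed for 4 members upwards and none downwards in the macrophage course (all genes 11.8%, with 7.04% up and 4.75% down), and for 4 upwards and 1 downwards in the granulocyte course (all genes 19.2%, with 12.4% up and 6.77% down). With median-of-ratios scaling the split was 5 and 3 for macrophage and 6 and 4 for granulocyte culture, and without structural RNAs and histone genes 2 and 3 and 4 and 4. Leaving out single libraries moved the count to between 1 and 9 in the macrophage course (1 without control replicate 1 or Taf1 KO replicate 3 of day 7 or Taf1 KO replicate 2 of day 0, and 2 without Taf1 KO replicate 2 or control replicate 2 of day 7 or control replicate 2 of day 0, and 9 without control replicate 3 of day 7). In the granulocyte course it moved to 3 without control replicate 2 of day 7 or of day 0 or Taf1 KO replicate 2 of day 0, to 8 without Taf1 KO replicate 1 or 3 of day 0, to 10 without Taf1 KO replicate 1 of day 7 and to 13 without control replicate 3 of day 7. Hspe1 passed in both courses (0.71 ± 0.22 and 0.74 ± 0.22, adjusted p = 0.0391 and 0.0218), which share their day 0 libraries, but in neither without Taf1 KO replicates 2 and 3 of day 7. It averaged 247 ± 28.9 TPM in the macrophage and 167 ± 13.5 TPM in the granulocyte course at day 7 and 285 ± 70.03 TPM at day 0 in Taf1 KO cells, and 181 ± 36.4 TPM, 119.8 ± 18.3 TPM and 334 ± 45.7 TPM in control cells.

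At day 7 more members were higher than lower in the macrophage course relative to the granulocyte course. Of the 68 members tested there, 37 were higher and 5 lower in the macrophage course of Taf1 KO cells (all genes 53% called, 37.5% up and 15.4% down), and 39 were higher and 3 lower in that of control cells (all genes 46.7% called, 36.3% up and 10.3% down). Median-of-ratios scaling gave 30 and 10 in Taf1 KO and 26 and 6 in control cells. Without Taf1 KO replicates 2 and 3 the comparison in Taf1 KO cells sets 1 library against 1. All 8 TRiC subunits were higher in the macrophage course in both genotypes, 8 of them in Taf1 KO and 6 in control cells also under median-of-ratios scaling. Hspa9 averaged 224 ± 8.13 TPM in the macrophage and 142 ± 11.7 TPM in the granulocyte course of Taf1 KO cells, and 190.5 ± 33.7 TPM and 103 ± 15.9 TPM in those of control cells (log2 differences 0.65 ± 0.14 and 0.88 ± 0.14, adjusted p = 0.00223 and 0.000663). Dnajc15, a mitochondrial J-domain protein of the inner membrane, averaged 136 ± 17.4 TPM and 65.7 ± 6.35 TPM in the macrophage and granulocyte courses of Taf1 KO cells (log2 difference 1.03 ± 0.16, adjusted p = 0.000422). Hspa2 was lower in the macrophage course in both genotypes (-0.36 ± 0.11 and -0.29 ± 0.11, adjusted p = 0.0138 and 0.0425), and the calls were lost without any of 2 single libraries in Taf1 KO and 3 in control cells. Without Taf1 KO replicates 2 and 3 the calls of Hspa9, Dnajc15 and Hspa2 in Taf1 KO cells were lost too, with 1 library left in each course.

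Whether the effect of Taf1 loss at day 7 differed between the courses was tested directly. With limma, 0 of the 68 members passed (all genes 3.26%, with 1.65% up and 1.61% down), and the lowest adjusted p was 0.0558. At an unadjusted p under 0.05 there were 6: Dnajb1, Dnajb2, Dnajc13, Dnajc15, Hspa14 and Hspb11. How many of all genes lay under that threshold was not counted, so these 6 are not a result about the members. Leaving out control replicate 3 of the macrophage course gave 1, and leaving out Taf1 KO replicate 1 of the granulocyte course gave 2. With the replicate number as a block, 5 passed, Dnajc15 and Dnajc13 upwards (0.51 and 0.37) and Dnajb2, Dnajb1 and Hspa14 downwards (-0.66, -0.39 and -0.24) in the macrophage relative to the granulocyte course. The share of all genes that passed with the block was not taken, so this count cannot be set against it. Dnajb1 had 24.4, 24.2 and 25.6 TPM in Taf1 KO and 28.8, 29.1 and 26.6 TPM in control libraries of the macrophage course, and 26.7, 24.96 and 27.3 TPM and 22.6, 23.5 and 21.6 TPM in those of the granulocyte course. Its Taf1 KO libraries were thus all lower than the controls in the macrophage course, which did not pass, and all higher in the granulocyte course (adjusted p = 0.0396). The latter call was lost in 5 of the 6 fits without 1 of these libraries, and without Taf1 KO replicates 2 and 3 together.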

How the data were processed

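RNA-seq was made from total RNA of 36 libraries, with a stranded kit per the labels' protocols. The authors deposited TPM per gene for 24411 genes in a table for each course, and the 12 libraries of days 0 and 3 are the same values in both. Per the submitters' processing notes TPM came from RSEM (version not given in the sources used here) on mm10. TPM keep no sequencing depth, so the depth behind each value is unknown and no counting intervals are given.

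Values were tested as log2(TPM + 1) with limma 3.58.1 in R 4.3.3 (moderated variance with trend), so a fold change of a low gene is understated. A gene entered a fit when 3 or more of its libraries reached 1 TPM, which left 11953 genes for the fit of the 24 macrophage course libraries (also used for days 0 and 3), 11905 in that of the granulocyte course and 11269 in that of the 12 day 7 libraries. There were 18 comparisons, each adjusted over all its genes by the Benjamini-Hochberg method at 0.05. Errors of log2 differences are SE, those of TPM are SD over 3 libraries. Median-of-ratios scaling sets each library by the median ratio of its genes to their geometric mean. A second scaling left out 87 genes of structural RNA and histones and rescaled the rest.

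The members and lists were chosen with earlier results of these data known. Named were a fixed set of members and, per comparison, up to 5 higher and 5 lower members with the largest log2 difference that passed, reached 5 TPM and had groups without overlap (up to 3 each way for differences between genotypes), with up to 2 genes of each outside list by p. Cct6a, Cct7, Dnajc9, Dnajb2, Dnajc13, Dnajb14 and others were named also at stages where this rule did not pick them, after their values were seen. Same-numbered libraries deviated together in all 3 pairs (correlation over 0.1) for Taf1 KO against control at day 5 of the macrophage course (lowest 0.182) and for the courses at day 7 in Taf1 KO (0.271) and control cells (0.231), from the data and not from the labels. Differently numbered libraries reached 0.135, 0.348 and 0.430 in these comparisons, above the lowest same-numbered value in both at day 7. The scripts were tested on simulated data.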

Additional observations from a re-analysis of the deposited data

Results flagged for a closer look

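The test of the difference between the genotypes in the change over culture was passed by 27 members for day 3 against day 0, 4 for day 7 of the macrophage course and 5 for day 7 of the granulocyte course, with limma at an adjusted p of 0.05. The log2 differences at day 3 were 1.47 for Hspbp1, 1.27 for Hsp90aa1, 1.24 for Hspd1, -0.94 for Dnajc4 and -0.34 for Dnajc5. In the macrophage course at day 7 they were 0.71 for Hspe1, 0.58 for Bag3 and 0.51 for Dnajc16. In the granulocyte course at day 7 they were 1.42 for Dnajb2, 0.74 for Hspe1, 0.63 for Hspa2 and -0.67 for Dnajc13. All 3 sets of tests share the day 0 libraries.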

How the results depend on the processing

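Single members were followed under all alternatives only where they were named, mostly for a large difference and groups without overlap. Of 161 such results past the threshold, 109 kept their call under every alternative and 52 lost it under at least 1, and none changed direction. Other calls of members were not followed under all alternatives, so these counts do not describe them. Among the members followed, those that did not pass changed direction at day 3 in 2 cases: Hsp90ab1 without control replicate 1 (-0.00714, with single libraries left out giving up to 0.22), and Hspa1b under median-of-ratios scaling (-0.00205), without Taf1 KO replicate 1 (-0.0343) and without control replicate 2 (-0.0454, with single libraries left out giving up to 0.11).

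Without Taf1 KO replicates 2 and 3 of day 7 together, 1 member was called in Taf1 KO against control at day 7 in macrophage culture and 4 in granulocyte culture, 1 in the macrophage against the granulocyte course of Taf1 KO cells, and 0 and 2 in the differences between genotypes for day 7 of the macrophage and granulocyte courses. Median-of-ratios scaling gave 8 and 10 for these differences and 1 for the difference between courses. For the granulocyte course difference, a pseudocount of 5 TPM, no filter on low values and the removal of structural RNAs and histones each gave 8, and a fit of the groups of the contrast alone gave 3. For the difference between courses, no filter gave 1 and the replicate block gave 5. The block moved no other count of members called past 1.5 times. Same-numbered libraries deviated together in all pairs only in the day 5 macrophage and day 7 course comparisons, by the correlations given above.

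With single libraries left out, the members called in Taf1 KO against control ranged over 10 to 17 at day 0, 35 to 38 at day 3, 23 to 27 and 11 to 27 at days 5 and 7 of the macrophage course, and 14 to 22 and 13 to 28 at days 5 and 7 of the granulocyte course. Day 3 against day 0 gave 26 to 40 in Taf1 KO and 52 to 54 in control cells. Day 7 against day 0 gave 41 to 44 in Taf1 KO and 39 to 45 in control cells of the macrophage course, and 44 to 50 and 41 to 49 in the granulocyte course. The differences between genotypes gave 21 to 29 at day 3, 1 to 9 for the macrophage and 3 to 13 for the granulocyte course. The courses at day 7 gave 30 to 37 in Taf1 KO and 30 to 46 in control cells, and the difference between courses 0 to 2. With unknown depth, the precision of members under about 5 TPM, such as Bag3 and Dnajb2, rests on 3 libraries alone.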
